A study of Mus musculus with 10 samples.

Results

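The 4 mouse Hox clusters and the miRNAs embedded in them were followed in the C57BL/6 mouse heart at 5 stages: E10.5, E14.5, E17.5 (embryonic days), newborn and adult. Where 5 values are given in a row they follow that order, youngest first. Members were chosen by position and name and not by their levels. Long RNA loci were taken where their mm9 interval lay within chr6:52100000-52215000 (HoxA, 16 loci), chr11:96050000-96230000 (HoxB, 13 loci), chr15:102745000-102870000 (HoxC, 10 loci) or chr2:74480000-74605000 (HoxD, 12 loci). Mature miRNAs were taken where their names began with miR-10a, miR-10b, miR-196a, miR-196b or miR-615. This gave 51 of 35299 loci and 11 of 1908 miRNAs. A further locus, chr6:52212777-52217597, crossed the edge of the HoxA window, was not a member and was listed at 0 at every stage.

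Each stage had 1 long RNA library and 1 small RNA library of heart tissue. The labels name the cardiomyocyte as cell type beside heart as source, and do not say how many hearts a library pooled or how old the newborn and adult animals were. With 1 library per stage there was no replicate spread, and no difference between stages was tested. "Higher" and "lower" describe these libraries.

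Hox genes encode homeodomain transcription factors that give cells their position along the body axis. They lie in clusters where the low-numbered genes are expressed earlier and further forward than the high-numbered ones. In the embryonic heart, low-numbered Hox genes are known from progenitors of the second heart field and from neural crest cells that reach the outflow tract. Several miRNAs are transcribed from the same clusters, and miR-10 and miR-196 are known to repress Hox transcripts. A hairpin yields a 5p and a 3p arm, of which 1 usually accumulates as the guide that finds targets through its seed, bases 2 to 8.

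The mature sequences below, from RefSeq (GRCm38.p6), show which of these miRNAs differ at only 1 base. All 11 members matched a RefSeq entry. Sequences run 5′ to 3′, with the seed in capitals.
miR-10a-5p: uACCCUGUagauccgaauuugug
miR-10b-5p: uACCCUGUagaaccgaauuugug
miR-196a-5p: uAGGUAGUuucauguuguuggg
miR-196b-5p: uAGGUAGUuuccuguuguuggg
miR-615-3p: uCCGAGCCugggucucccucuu
miR-615-5p: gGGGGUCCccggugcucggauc

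miR-10a-5p and miR-10b-5p share the seed ACCCUGU and differ only by U12A over 23 bases, with positions counted from 1 at the 5′ end and the base of miR-10a given first. miR-196a-5p and miR-196b-5p share the seed AGGUAGU and differ only by A12C over 22 bases. No other mature miRNA in the RefSeq table had either seed. An exact full-length read fits only 1 member of a pair. How the authors assigned reads with a mismatch, or reads that fit both members, is not stated. The passenger arms are easier to separate, since miR-10a-3p and miR-10b-3p differ at 3 of 22 bases.
miR-10a-3p: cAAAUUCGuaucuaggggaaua
miR-10b-3p: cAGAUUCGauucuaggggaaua

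The hairpins sit at different places in the clusters, by the gene order of RefSeq on GRCm38.p6. Mir10a lies on chromosome 11 inside the span of Hoxb3, between Hoxb5 and Hoxb4. Mir10b lies on chromosome 2 inside the overlapping spans of Hoxd3 and Hoxd4. Mir615 lies on chromosome 15 inside the span of Hoxc5. Mir196b lies on chromosome 6 between Hoxa9 and Hoxa10, Mir196a-1 on chromosome 11 between Hoxb13 and Hoxb9, and Mir196a-2 on chromosome 15 between Hoxc10 and Hoxc9. The guide miR-196a-5p is the same from both of its hairpins, so its counts cannot be divided between HoxB and HoxC. Only the passenger arms, in capitals below beside the shared guide, differ, at 17 of 22 bases.
Mir196a-1: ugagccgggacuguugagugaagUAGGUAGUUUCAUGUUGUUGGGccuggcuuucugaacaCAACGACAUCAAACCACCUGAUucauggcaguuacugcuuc
Mir196a-2: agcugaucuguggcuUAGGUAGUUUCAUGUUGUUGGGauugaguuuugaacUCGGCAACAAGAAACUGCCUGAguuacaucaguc

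Small RNA libraries held between 10479309 and 12953867 miRNA counts. All 6 heart muscle miRNAs of the marker list were present at every stage, with a summed level from 52199 counts per 1000000 (CPM) at the youngest stage to 242570.2 in the adult. Most of this sum was miR-1a-3p, which ran from 42165 to 224767 CPM between these stages. miR-133a-3p, miR-133b-3p and miR-208a-3p also had their highest values in the adult. The list did not move as 1, since miR-208b-3p was lowest there (24.3 CPM, with 1098 its E17.5 value). miR-499-5p was highest in the newborn (6441 CPM, with 3752 its adult value). The newborn small RNA library stood apart in miR-9-5p, at 13011 CPM. This was nearly all of its neural list, which summed to 13042 CPM against 406 to 838 CPM at the other stages. All 4 miRNAs of that list were detected at every stage. miR-124-3p (26.5 CPM) and miR-137-3p (4.71) were also highest in the newborn, while miR-219a-5p was at 0.0785 CPM there and 0.859 at E10.5. At E14.5 the skeletal muscle miRNA miR-206-3p was at 2848 CPM, against 82.8 to 586 at the other stages. The epithelial list (6 miRNAs) summed to between 919.8 and 1689 CPM in the embryonic libraries, 91.0 in the newborn and 44.2 in the adult, where miR-205-5p was at 0. The liver miRNA miR-122-5p ranged from 33.3 CPM in the adult to 894 at E10.5. The 4 mesenchymal miRNAs summed to 68373 CPM in the adult and 139274 at E10.5. Most of this was miR-143-3p, at 66790.3 and 125040.4 CPM. The 2 endothelial miRNAs summed to 38044 CPM in the adult and 21581 at E10.5. The 3 erythroid and lymphoid miRNAs summed to 441 and 230.4 CPM. The part of these cells in the results below was not tested, and in tissue libraries fewer cells of a type and less RNA per cell cannot be told apart. In the long RNA table, 1 locus outside the Hox clusters was listed at 5711970 FPKM (fragments per kilobase of transcript, scaled to library size) at E10.5 and at 628 at E14.5.

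The miR-10 guides were the abundant members, and the balance between them changed across the stages. Together miR-10a-5p and miR-10b-5p made up from 97.5% (E10.5) to 99.9% (adult) of the members' counts. miR-10a-5p, from HoxB, was at 7674, 4404, 3726, 1964 and 4161 CPM over the stages. It was highest at E10.5, lowest in the newborn, and ranked 28 of all miRNAs at E10.5 and again 28 in the adult. miR-10b-5p, from HoxD, was at 2302, 3300.0, 3825, 3614 and 2098 CPM in the same order. Its highest value was at E17.5 and its lowest in the adult, so in CPM the pair ran in opposite directions through the embryonic stages. Scaled by the median ratio over miRNAs in place of the library total, miR-10b-5p was at 957, 2233, 3068, 3396 and 4544, highest in the adult, and miR-10a-5p at 3191, 2981, 2988, 1845 and 9013, again lowest in the newborn.

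The ratio of miR-10a-5p to miR-10b-5p within a library does not depend on how libraries are scaled. By age it was 3.33, 1.33, 0.974, 0.543 and 1.98. miR-10a-5p therefore made up 76.9% of the pair at E10.5 (exact Clopper-Pearson 95% interval 76.7 to 77.2), 35.2% in the newborn (34.9 to 35.6) and 66.5% in the adult (66.2 to 66.8). These intervals, like the others given for counts, cover counting error only. The passenger arms, with far fewer counts, also placed E10.5 highest and the newborn lowest. miR-10a-3p was 74.1% of its pair at E10.5 (66.7 to 80.6), 35.5% in the newborn (24.9 to 47.3) and 68.1% in the adult (55.8 to 78.8). At E14.5 the arms differed, with 57.2% for the 5p arms and 42.3% (33.0 to 52.1) for the 3p arms.

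**Figure D1:**
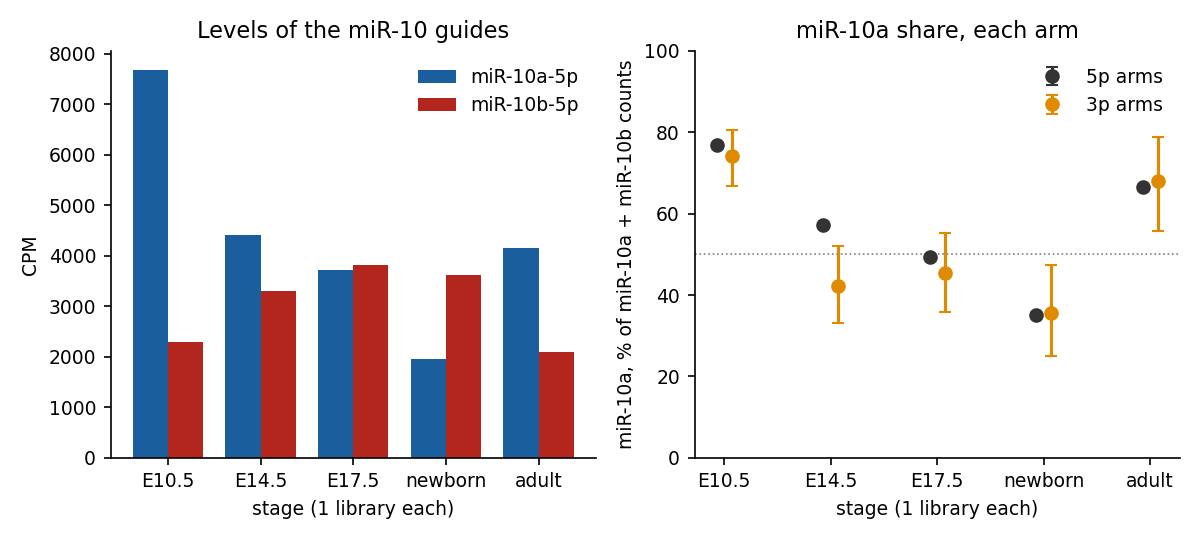
Left, CPM of miR-10a-5p and miR-10b-5p at each stage as bars, 1 library each. Right, the share of miR-10a in the summed counts of miR-10a and miR-10b for the 5p and the 3p arms, with exact 95% intervals as bars and a dotted line at 50%. The miR-10a share of the 5p arms runs from 76.9% at E10.5 to 35.2% in the newborn and is 66.5% in the adult.

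The low point of miR-10a-5p rests on the newborn library, where miR-9-5p stood at 13011 CPM. From E17.5 to the newborn miR-10a-5p was 1.90-fold lower in CPM (1.87 to 1.93), and the adult was 2.12-fold above the newborn (2.09 to 2.15). Without the newborn library, the adult was 1.12-fold above E17.5 (1.10 to 1.13). miR-10b-5p in the adult was 1.82-fold below E17.5 (1.80 to 1.85) and 1.72-fold below the newborn (1.70 to 1.75), both in CPM. Under median-ratio scaling both miR-10b-5p comparisons turned, to log2 ratios of 0.57 and 0.42 with the adult higher. The shift of the pair between E17.5 and the adult was present without the newborn, from 49.3% (49.0 to 49.7) to 66.5% miR-10a-5p.

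The direction of either miR-10 guide between E10.5 and the adult depended on the scaling. The log2 ratio of the adult to E10.5 was -0.88 for miR-10a-5p in CPM and 1.50 when libraries were scaled by the median ratio over miRNAs. For miR-10b-5p the values were -0.13 (CPM) and 2.25 (median ratio). Over all 765 miRNAs compared between these stages the median log2 difference was -1.59 from CPM values and -0.38 after scaling by the median ratio. On either scaling, the adult to E10.5 log2 ratios of both guides lay above that median difference.

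miR-615-3p, from within the span of Hoxc5, had a larger fold between E10.5 and the adult than any other member counted at both, and was lower at every later stage. Its counts were 1805, 514, 243, 31 and 6, which is 172, 44.6, 18.9, 2.43 and 0.463 CPM. E10.5 was 372-fold above the adult (171 to 1015). Its first embryonic step was 3.86-fold (3.50 to 4.27), the next 2.36-fold (2.02 to 2.76), and that across birth 7.77-fold (5.33 to 11.7). Without the newborn, E17.5 was 40.8-fold above the adult (18.5 to 112). Under median-ratio scaling the log2 ratio of the adult to E10.5 was -6.16, against -8.54 in CPM. The other arm, miR-615-5p, had 31, 6 and 3 counts in the embryonic libraries and 0 after birth. Its exact 95% interval put E10.5 at least 9.78-fold above the adult in CPM, and the 31 counts were 12.8-fold above the 3 counts that a count of 0 allows.

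The miR-196 guides, which repress Hox transcripts, were low and were also highest at E10.5. miR-196b-5p, from HoxA, had 450, 81, 90, 41 and 24 counts, or from 42.9 down to 1.85 CPM. Most of its difference lay between E10.5 and E14.5, at 6.11-fold (4.81 to 7.84), while E14.5 and E17.5 were indistinguishable within counting error (ratio 0.997, 0.730 to 1.36). Its log2 ratio of the adult to E10.5 was -4.53 in CPM and -2.15 after scaling by the median ratio, and that of miR-196a-5p was -5.49 and -3.11. miR-196a-5p had 254, 26, 18, 15 and 7 counts in the same order. Its first step was 10.7-fold (7.16 to 16.8), and the steps from E14.5 to E17.5 and on to the newborn were within counting error. Of the passenger arms that tell the hairpins apart, miR-196a-1-3p had 7, 0, 1, 0 and 1 counts. miR-196a-2-3p had 0 counts at every stage, which allows up to 0.286 CPM at E10.5. miR-196b-3p had 2 counts at E10.5 and 0 later.

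**Figure D2:**
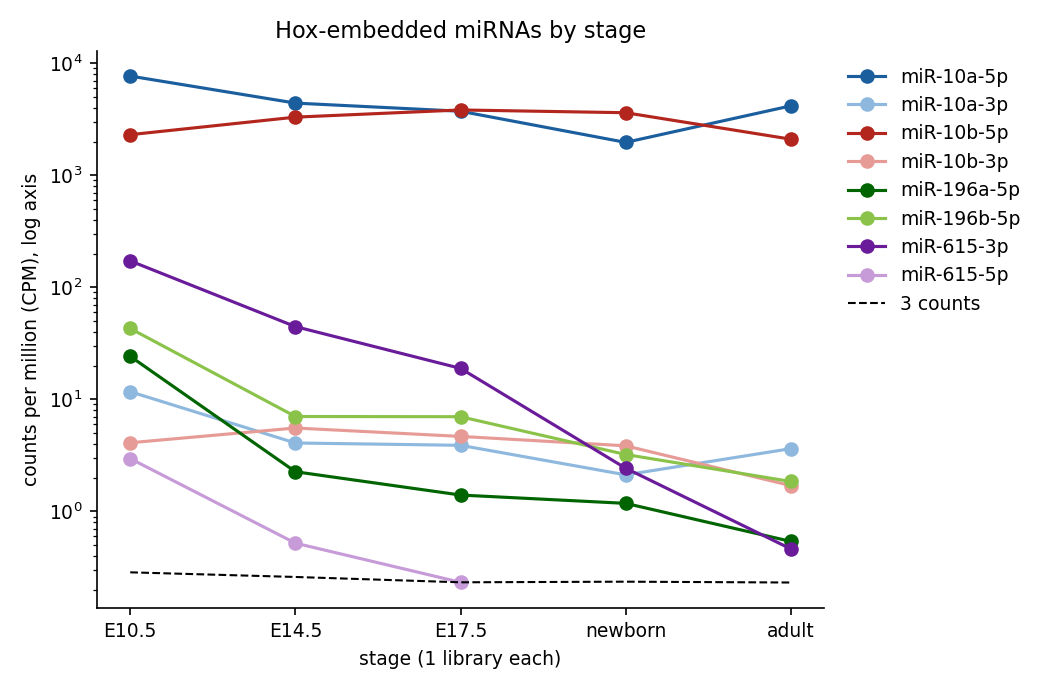
CPM of 8 Hox-embedded miRNAs at each stage on a log axis, 1 library per stage, with the level of 3 counts as a dashed line. Values at 0 are not drawn, and miR-196a-1-3p, miR-196a-2-3p and miR-196b-3p are left out. The miR-10 guides stay between 1964 and 7674 CPM, while miR-615-3p runs from 172 to 0.463 CPM.

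miRNAs entered a comparison with 10 counts or more in either library and were called higher or lower at a 2-fold difference of CPM + 1. Between E10.5 and the adult 8 members were compared, of which 5 were lower and 0 higher. Of all miRNAs compared, 68.2% were lower and 7.97% higher, so the members' count was near the background. The members' median log2 difference was -1.72, beside -1.59 over all. The lower members were miR-10a-3p, miR-196a-5p, miR-196b-5p and both arms of miR-615, and 3 of them were compared only through their E10.5 counts. At the first step, E10.5 to E14.5, 5 of 8 were lower and 0 higher, beside 27.9% lower and 2.88% higher over all.

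Later steps held few calls. From E14.5 to E17.5, 1 of 7 members was lower, miR-615-3p, and 0 higher, beside 5.60% and 1.03%. From E17.5 to the newborn, again 1 of 7 was lower, miR-615-3p, and 0 higher, beside 9.51% and 5.05%. From the newborn to the adult, 1 of 7 was higher, miR-10a-5p, and 1 lower, miR-615-3p, beside 6.76% higher and 43.2% lower. Without the newborn, the adult set against E17.5 had 0 of 7 members higher and 3 lower, beside 7.10% higher and 50.8% lower over all.

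miR-99a, miR-99b and miR-100 belong to the same wider family as miR-10 but lie outside the Hox clusters and carry the seed ACCCGUA. miR-100-5p was at 7107, 7442, 4877, 5275 and 7702 CPM. miR-99a-5p ranged from 16119.8 CPM in the newborn to 23598 in the adult, and miR-99b-5p from 4719 CPM in the adult to 39146 at E10.5. Of the 6 arms compared between E10.5 and the adult, 2 were lower, both from miR-99b, and 0 higher.

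Hox cluster loci were low in the heart at every stage, and their sum was lowest in the adult, although HoxD was lowest at E10.5. The table pairs loci with UCSC transcript identifiers, none of the 66 identifiers of the members matched the name tables used here, and no coordinate was converted between builds, so loci are given by position and not by gene. At E10.5, 7 of the 51 loci reached 1 FPKM (13.7%, against 35.4% of all loci). At the 4 later stages 6, 3, 1 and 0 loci did so, while 36.3% of all loci reached it in the adult. The members' summed FPKM was 26.5, 14.0, 11.9, 5.75 and 3.88 over the stages. Of the 51 loci, 18 were listed at 0 at every stage (35.3%, against 23.3% of all loci). Loci share intervals in part: 19 of the 51 had the same interval as another member, so the division of fragments among them is uncertain.

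Depth is not stated for the long RNA table, and no interval can be given for FPKM. Depth relative to E17.5 could be gauged among loci below 0.05 FPKM, where 1 fragment was worth between 0.948 and 1.28 times its value at E17.5, the latter in the adult. Between 69.6% and 71.5% of such loci lay at that ratio or a 2-fold step from it, within 0.05 log2. Values of a few hundredths of an FPKM are at the level of single fragments. The locus chr6:52174052-52177369 showed this, at 0.0259, 0, 0.0260, 0.0260 and 0 FPKM.

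HoxA held the largest summed level at E10.5, with 13.2, 7.46, 6.08, 2.37 and 1.19 FPKM by age. Each stage was below the one before, and E10.5 was 11.1-fold above the adult. Within the interval chr6:52119060-52170389, which 7 loci share, the highest at E10.5 was at 3.37, 1.56, 0.773, 0.0644 and 0.124 FPKM. A neighbour in the same interval was at 2.28, 1.31 and 0.678 FPKM in the embryonic libraries and listed at 0 in the newborn and the adult. Another went its own way, with its highest value at E17.5: 0.362, 0.505, 0.853, 0.311 and 0.0341 FPKM. In the interval chr6:52108399-52114830 the higher of 2 loci was at 2.94, 1.57, 1.81, 0.862 and 0.463 FPKM in the order of the stages. Its partner, which lists the same transcript identifier, was at 1.49, 1.08, 0.805, 0.364 and 0.173 FPKM.

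HoxB was next, with summed values of 10.8, 4.34, 3.93, 1.81 and 1.50 FPKM from E10.5 to the adult. E10.5 was 7.19-fold above the adult, and most of the difference lay before E14.5 and between E17.5 and birth. More than any other Hox locus, that at chr11:96184439-96215328 with 3 transcript identifiers carried the signal, at 5.60, 2.83, 1.94, 1.09 and 0.753 FPKM. The second locus in that interval, which lists 1 of the same identifiers, was at 1.42, 0.216, 0.468, 0.196 and 0.0169 FPKM. The locus chr11:96180052-96182944 kept more of its level, at 1.82, 1.00, 1.00, 0.371 and 0.624 FPKM, with the adult above the newborn. In the interval chr11:96152349-96168224, 1 locus was at 0.699 FPKM at E10.5 and from 0.0318 to 0.121 later, and another at 0.585 FPKM at E10.5 and listed at 0 in the newborn and the adult.

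HoxC was nearly silent, and all that was measured lay in 3 of its 10 loci. Its summed FPKM was 1.59, 0.337, 0.161 and 0.0401 up to the newborn, and it was listed at 0 in the adult. The locus chr15:102844438-102847860 was at 0.886, 0.161, 0.0637, 0 and 0 FPKM, the highest of them at E10.5 and E14.5. The locus chr15:102849366-102867283 was at 0.387, 0.138, 0.0973, 0 and 0 FPKM, the highest at E17.5. The locus chr15:102829144-102842312, at 0.321, 0.0381, 0, 0.0401 and 0 FPKM, was the only one above 0 in the newborn. The other 7 loci were listed at 0 at every stage.

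HoxD differed from the other clusters in direction. Its summed FPKM was 0.971, 1.85, 1.68, 1.52 and 1.19, so E10.5 was its lowest stage while it was the highest of HoxA, HoxB and HoxC. HoxD made up 3.66% of the members' FPKM at E10.5 and 30.7% in the adult. Nearly all of it lay in the interval chr2:74541072-74586328, shared by 3 loci. The locus with 2 transcript identifiers was at 0.267, 0.973, 0.935, 0.667 and 0.460 FPKM in the order of the stages. A second was at 0.135, 0.450, 0.341, 0.503 and 0.505 FPKM, also lowest at E10.5. The third ran the other way, at 0.488, 0.398, 0.322, 0.250 and 0.117 FPKM. The first and second list 1 transcript identifier in common, so their division is uncertain. The locus chr2:74535819-74538265 was listed at 0 at E10.5, at 0.0269 FPKM at E14.5 and at 0.109 in the adult. The remaining named locus, chr2:74590740-74591797, was at 0.0813 FPKM at E10.5 and 0 later.

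**Figure D3:**
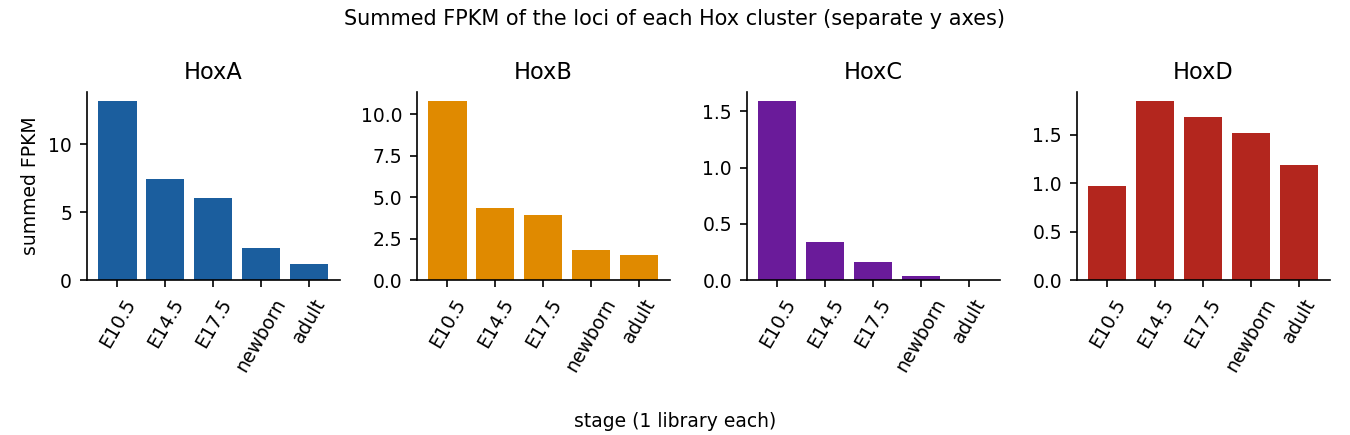
Summed FPKM of the member loci of each cluster at each stage, 1 library per stage, with a separate y axis for each cluster. HoxA, HoxB and HoxC are highest at E10.5, while HoxD is lowest there, at 0.971 FPKM against 1.85 at E14.5.

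Counted over single loci with no filter, 30 members were above 0 at E10.5 or in the adult, and 27 of these were lower in the adult (90.0%), against 47.7% of all loci above 0. Of the 30, 12 were listed at 0 in the adult and so entered through E10.5 alone, and 1 was listed at 0 at E10.5, so the share does not by itself support a direction. The 3 higher members were all in HoxD. All 12 such loci in HoxA, 10 in HoxB and 3 in HoxC were lower. By single steps, 81.2% of members were lower at E14.5 than at E10.5 (26 of 32), 69.0% at E17.5 than at E14.5, 78.6% in the newborn than at E17.5 and 70.8% in the adult than in the newborn. The shares over all loci were 51.1%, 49.1%, 47.9% and 49.8%. A member above 0 only in the earlier library counts as lower here, so the step shares do not by themselves support a direction either. Loci of a cluster share intervals in part, so they do not count as separate replicates.

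Loci entered a comparison with 1 FPKM or more in either library and were called at a 2-fold difference of FPKM + 1, which understates the change of loci this low. Between E10.5 and the adult 7 members were compared, of which 6 were lower and 0 higher, beside 17.9% lower and 21.7% higher over all loci compared. All 7 passed the filter through E10.5 and 0 through the adult, so this count cannot support a direction. The exception was chr11:96180052-96182944, with a log2 difference of -0.80. At the single steps 0 members were called. The shares of all loci called higher or lower were 6.90% from E10.5 to E14.5, 3.26% from E14.5 to E17.5, 5.51% from E17.5 to the newborn and 21.6% from the newborn to the adult. Members compared at these steps numbered 7, 6, 3 and 1. Scaled to a common FPKM total without mitochondrial loci, 6 members were higher at the first step and the 6 lower calls in the adult became 0, with 1 higher, a total set at E10.5 by the locus at 5711970 FPKM.

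By the midpoints of the loci, the signal at E10.5 lay toward the low-numbered side of each cluster. In RefSeq the gene numbers of HoxA rise along chromosome 6, while those of HoxB, HoxC and HoxD fall along chromosomes 11, 15 and 2. The direction is taken from GRCm38.p6 and assumed to be the same in mm9. At E10.5, loci with their midpoint on the low-numbered side of the middle held 99.3% of the FPKM of HoxA (11 of 16 loci), 99.6% of HoxB (9 of 13), 100.0% of HoxC (5 of 10) and 100.0% of HoxD (5 of 12). In the adult these shares were 97.5% for HoxA, 100.0% for HoxB and 90.8% for HoxD, with far-side sums of 0.0291 FPKM in HoxA and 0.109 in HoxD. The shared intervals chr6:52119060-52170389 in HoxA and chr2:74541072-74586328 in HoxD cross the middle and were placed whole by their midpoint. For HoxA and HoxD the shares therefore cannot tell on which side of the middle that RNA lay. The outermost locus on the low-numbered side was listed at 0 throughout in HoxD, and in HoxB it was at 0.0836 FPKM at E10.5.

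**Figure D4:**
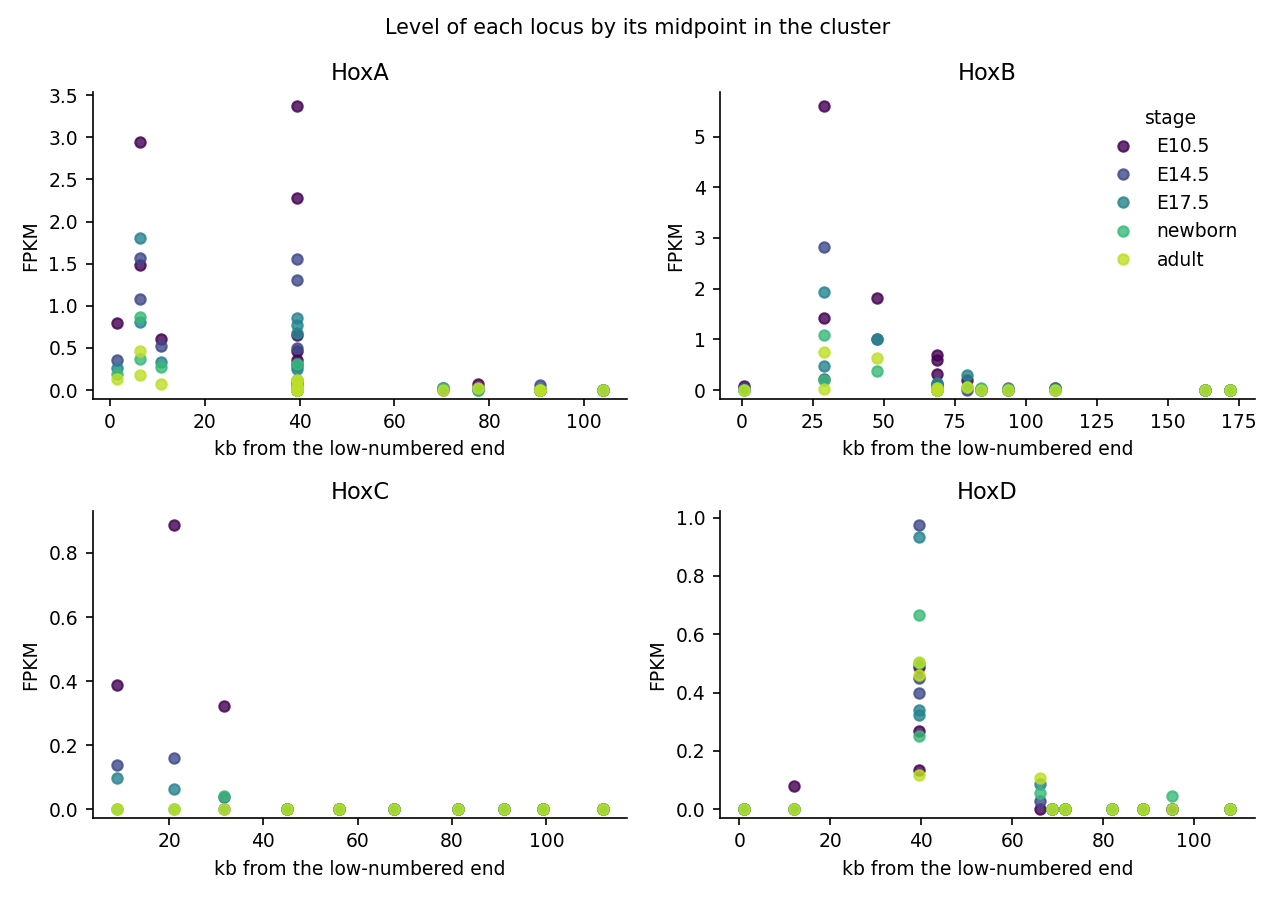
FPKM of each locus at the 5 stages against the distance of its midpoint from the low-numbered end of the cluster in kb. Each panel has its own y axis, each point is 1 locus in 1 library, and loci with the same interval fall on the same x value. Points above 0.1 FPKM lie on the low-numbered side in HoxA, HoxB and HoxC, with 1 HoxD locus at 0.109 FPKM in the adult on the other side.

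Set beside the clusters that hold them, the miRNAs and the long RNA loci ran in the same direction in part. miR-615-3p and HoxC were lower at every later stage, with 6 counts and a summed FPKM of 0 in the adult. miR-196b-5p was 23.2-fold (15.4 to 36.6) in CPM and HoxA 11.1-fold higher at E10.5 than in the adult. Each cluster sum covers the whole cluster and not the surroundings of the hairpin. Mir196b lies between Hoxa9 and Hoxa10, while loci placed on the low-numbered side held 99.3% of the HoxA sum at E10.5. The HoxA loci on the other side summed to 0.0936 FPKM at E10.5 and 0.0291 in the adult, too low to compare. miR-10b-5p and HoxD were both higher at E14.5, E17.5 and in the newborn than at E10.5, by 1.43-fold (1.41 to 1.46) and 1.90-fold at E14.5. Between E14.5 and E17.5 they parted, with miR-10b-5p at 1.16 times its E14.5 CPM (1.14 to 1.17) and HoxD going from 1.85 to 1.68 summed FPKM. In the adult miR-10b-5p was at 0.911 times its E10.5 CPM (0.896 to 0.927) and HoxD at 1.23 times its E10.5 sum. miR-10a-5p in CPM and HoxB were lower at each step up to the newborn and then parted. From the newborn to the adult miR-10a-5p was 2.12-fold higher while HoxB went from 1.81 to 1.50 summed FPKM. These are single libraries of each kind, the scales differ, and the miRNA values depend on the scaling as given above.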

How the data were processed

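Tissue was frozen and extracted with Trizol, per the labels' protocols, which describe small RNA libraries from 18 to 30 nucleotide RNA with unique molecular identifiers. The preparation and strand of the long RNA libraries are not stated. The authors deposited FPKM for each locus, per the file headers, and whole-number counts per mature miRNA. The build mm9 and the tools HISAT, HISAT2, Bowtie, Bowtie2 and RSEM are named, without roles, per the submitters' processing notes. Versions, and whether reads or identifiers were counted, are not stated.

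Groups came from sample titles. Counts were divided by library totals (10479309 to 12953867) to give CPM. Differences were taken on log2(value + 1) for loci with at least 1 FPKM and miRNAs with 10 counts or more in either library, and 2-fold differences were called, with no test. Ratios and shares of counts carry exact Clopper-Pearson 95% intervals, and a count of 0 allows 3 counts. The calculation was tested on simulated data. Every member miRNA is named, and of each cluster the 5 loci of highest FPKM that were above 0. Members and lists were chosen with earlier results of these data known. Alternatives covered pseudocounts, filters, limits, scaling and the set of loci. Python 3.11.15, pandas 2.3.3, numpy 2.4.6, scipy 1.17.1 and matplotlib 3.10.9 were used.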

Additional observations from a re-analysis of the deposited data

How the results depend on the processing

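No paired analysis was possible because each stage had 1 library. Of the values recomputed under another setting, 175 were labelled the same, 61 moved and 7 reversed. The labels do not follow the size of the shift. The HoxA log2 ratio counts as moved from -3.47 to -3.49, and that of miR-10a-3p as the same from -1.69 to -1.46. Many labelled the same were counts of 0 under both settings, so the tally is no measure of how firm the results are. Where no share of all loci or all miRNAs stands beside a count of calls below, that count cannot be set against the background at its setting.

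Loci. The 6 calls lower between E10.5 and the adult were 0 with a pseudocount of 5, a 10 FPKM filter, a 4-fold limit or a common total without mitochondrial loci, and 3 with 1 locus of each overlapping group. The highest member value was 5.60 FPKM, so the 10 FPKM filter left no member to compare. At such levels a pseudocount of 5 leaves little room for a 2-fold difference. Neither of these 2 settings tells about the calls. With choices added after seeing the data they were 3 against E14.5. With a pseudocount and filter of 0.1, 19 of 23 members were lower and 2 higher (all loci 23.2% and 29.7%). Of the members, 22 reached 0.1 FPKM at E10.5 and 11 in the adult, so many entered through E10.5 alone. At the single steps this setting gave 10 lower and 2 higher of 22 (7.80% and 13.3%), 1 higher of 20 (7.64%), 7 lower of 17 (8.88%) and 3 lower of 14 (18.9%). Fewer members reached 0.1 FPKM at each later stage, so none of these counts can by itself support a direction. A pseudocount of 0.1 alone gave 2 lower at the first step and 1 in the newborn. The common total gave 6 higher at the first step, 2 lower in the newborn and 1 higher in the adult, because at E10.5 it is dominated by the locus at 5711970 FPKM.

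Clusters. The log2 ratio of adult to E10.5 sums was -3.47 for HoxA, -2.85 for HoxB and 0.30 for HoxD, and could not be formed for HoxC. Median-ratio scaling gave -3.49, -2.87 and 0.27, and the common total -0.63, -0.0016 and 3.14. Without that locus it gave -3.35, -2.73 and 0.42. With 1 locus of each overlapping group the values were -3.25, -2.51 and 0.71, and loci with an identifier gave -3.49 for HoxA. Against E14.5 they were -2.65, -1.53 and -0.63, so HoxD reversed. Median-ratio scaling multiplies all loci of a library alike and left the shares by position as they were.

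miRNAs. Members lower at the first step, 5, were 3 with a pseudocount of 5, 2 at the 4-fold limit, and 3 lower with 1 higher under median-ratio scaling (all miRNAs 4.46% and 6.82%). Between E10.5 and the adult the 5 lower members were 3 with a pseudocount of 5 or the 4-fold limit, and median-ratio scaling gave 4 lower and 2 higher (all 32.0% and 24.8%). The single call from E14.5 to E17.5 became 0 at the 4-fold limit and under median-ratio scaling (all 2.95%). That in the newborn became 2 with a pseudocount of 0.1. From the newborn to the adult the 1 lower became 2 with a pseudocount of 0.1 and 0 with a pseudocount of 5, a filter of 100 counts, the 4-fold limit or median-ratio scaling, while the 1 higher became 0 at the 4-fold limit and 2 under median-ratio scaling (all 27.7% lower and 23.4% higher). With 31 and 6 counts, miR-615-3p was not compared at all under the filter of 100 counts. Without the newborn library, adult against E17.5 had 0 higher and 3 lower of 7 (all 7.10% and 50.8%).

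Adult to E10.5 log2 ratios of miR-10a-5p, miR-10b-5p, miR-10a-3p and miR-10b-3p (-0.88, -0.13, -1.69 and -1.27) reversed under median-ratio scaling to 1.50, 2.25, 0.69 and 1.11. Without the 10 most abundant miRNAs in the total they were 0.01, 0.76, -0.80 and -0.38. Against E14.5 they were -0.08, -0.65, -0.17 and -1.71. miR-196b-5p (-4.53) was at -2.15, -3.64 and -1.92 under these settings. The cause was not tested. Depth limits miR-196a-5p and miR-615-3p in the adult, with 7 and 6 counts.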

Other observations

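The arms of the Hox-embedded hairpins were used unequally, in E10.5 and adult libraries alike. The 3p arm held 0.153% of the counts of miR-10a at E10.5 (exact Clopper-Pearson 95% interval 0.127 to 0.182) and 0.0871% in the adult (0.0640 to 0.116). For miR-10b it held 0.178% (0.129 to 0.240) and 0.0809% (0.0507 to 0.122). miR-615 was the opposite case, with 98.3% of its counts on the 3p arm at E10.5 (97.6 to 98.8) and all 6 counts on it in the adult. Within the miR-196 guides, miR-196b-5p held 63.9% of counts at E10.5 (60.2 to 67.5) and 77.4% in the adult (58.9 to 90.4). In between it held 75.7% at E14.5 (66.5 to 83.5), 83.3% at E17.5 (74.9 to 89.8) and 73.2% in the newborn (59.7 to 84.2). The HoxA guide was thus the more abundant at every stage, although A12C alone tells it from miR-196a-5p.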
